A study of Arabidopsis thaliana with 18 samples.

Results

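The Aux/IAA repressor genes and the group II GH3 genes of Arabidopsis thaliana were followed in leaf messenger RNA from plants kept in air or held under water. The members were chosen by family and gene identifier, not by a cut on any measured value, though with earlier results of these data known. They are 29 Aux/IAA genes and 8 GH3 genes, 37 of the 32833 genes in the deposited table. Leaves came from plants 4 weeks old, and the 18 libraries fall into 6 groups of 3: submerged phyA-211, air phyA-211, submerged ein3eil1, air ein3eil1, submerged wild type and air wild type. Submergence lasted 6 h. The line phyA-211 carries a mutant allele of PHYA, the far-red light receptor gene, and ein3eil1 is a double mutant of EIN3 and EIL1, the main transcription factors of ethylene signalling. The labels give neither the ein3 and eil1 alleles nor the accession of the wild type, the title of every library also holds the unexplained word mock, and no label says whether the 3 libraries of a group came from separate plants, so the spread behind every p-value is that of 18 libraries and may be technical. The series title puts the question as how PHYA bears on escape from submergence.

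Aux/IAA proteins are short-lived repressors of auxin signalling. Auxin, mainly indole-3-acetic acid, glues the TIR1/AFB F-box receptors to a short degron in domain II of an Aux/IAA protein, which is then ubiquitinated and destroyed. An Aux/IAA protein that escapes destruction binds ARF transcription factors and brings the TOPLESS co-repressor to their target genes. Many Aux/IAA genes and several GH3 genes are themselves early auxin-induced ARF targets, so both families act as negative feedback and their transcripts are often read as a record of auxin response. Group II GH3 enzymes join indole-3-acetic acid to amino acids and so lower the pool of free hormone. In shoots the pathway takes part in the elongation of petioles and the upward movement of leaves in shade and under water, neither of which was measured here.

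The degron is what makes an Aux/IAA protein a target of the receptor, and its codons were read from RefSeq coding sequences of the TAIR10.1 build. The codons GGNTGGCCNCCNGTN, which spell the core with valine last, here called full, were in frame in 17 of the 29 Aux/IAA genes. Another 6 genes (IAA8, IAA10, IAA11, IAA12, IAA13 and IAA27) held only the shorter GGNTGGCCNCCN, followed by a codon other than GTN. That next codon spells isoleucine in IAA8, IAA11, IAA12, IAA13 and IAA27, and leucine in IAA10. Full and shorter thus name only the letters searched for, and binding by the receptor was not tested. The remaining 6 (IAA20, IAA30, IAA31, IAA32, IAA33 and IAA34) held neither, and 5 of these 6 were too low in leaves to be tested. Below are the stretches of 7 members on which the results turn, with the core codons in capitals and 15 coding bases on each side, the last pair being of the shorter form.
IAA2: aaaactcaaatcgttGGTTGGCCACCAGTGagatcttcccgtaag
IAA4: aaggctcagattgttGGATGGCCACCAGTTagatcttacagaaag
IAA16: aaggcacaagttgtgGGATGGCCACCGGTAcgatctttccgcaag
IAA17: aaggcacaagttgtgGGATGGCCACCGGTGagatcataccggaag
IAA29: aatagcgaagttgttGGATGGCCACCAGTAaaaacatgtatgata
IAA8: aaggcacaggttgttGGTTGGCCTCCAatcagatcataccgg
IAA12: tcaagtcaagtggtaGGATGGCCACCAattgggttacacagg
Their outer positions in TAIR10.1 are IAA2 at chr3:8181378-8181514 (reverse strand), IAA4 at chr5:17550642-17550778 (forward strand), IAA16 at chr3:1289721-1290214 (reverse strand), IAA17 at chr1:1136619-1136976 (forward strand), IAA29 at chr4:15583936-15583980 (forward strand), IAA8 at chr2:9637622-9637760 (forward strand) and IAA12 at chr1:1240780-1241093 (forward strand). An intron interrupts each of these stretches except that of IAA29. Of the 16 tested members with the full core, 8 were called higher and 1 lower in submerged phyA-211, 5 higher and 5 lower in submerged ein3eil1, and 9 higher and 2 lower in submerged wild type. Of the 6 with the shorter form, 1 was called higher and 2 lower in phyA-211, 1 higher and 5 lower in ein3eil1, and 1 higher and 2 lower in wild type. With the phyA-211 libraries alone in the fit, the full-core calls of IAA1, IAA4, IAA6 and IAA14 failed, as did the shorter-form call of IAA12. In phyA-211, 27.3% of all tested genes were called higher and 23.9% lower. The shares were 17% and 47.3% in ein3eil1, and 18.9% and 38% in wild type. These counts are a description.

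All values are in TPM, a transcript abundance scaled for gene length and library total that keeps no read depth, so the number of reads behind a value is unknown and no counting interval is given. Between 20611 and 23189 genes were above 0 in a library. PHYA stood at 1.20 to 1.83 TPM in air phyA-211, against 10.8 to 13.2 TPM in air wild type, and EIL1 at 6.90 to 17.0 TPM over the ein3eil1 libraries, against 38.2 to 69.5 TPM over those of wild type. EIN3 was below wild type in both conditions in ein3eil1 (26.9 to 49.4 TPM), though the submerged ranges nearly met. PHYA is given for air alone, so this check does not cover the submerged phyA-211 libraries. All 4 root markers stayed under 1 TPM in every library, and all 4 leaf mesophyll markers were detected in every group. All 4 flower markers were also detected in every group. Their sum was 6.7 to 13.4 and 0.88 to 27.7 TPM in submerged and air phyA-211. It was 5.85 to 39.0 and 0.99 to 59.5 TPM in submerged and air ein3eil1. In submerged and air wild type it was 5.23 to 6.24 and 1.3 to 6.57 TPM. The mesophyll sum was lower under water with no overlap in each line, at 7649.7 to 8692 and 14917 to 29416 TPM in submerged and air phyA-211, 7139 to 12474 and 16705 to 17661 TPM in submerged and air ein3eil1, and 15804 to 17457 and 24264 to 26361 TPM in submerged and air wild type. Both submerged mutants thus lay below submerged wild type in that sum. Guard-cell sums (4 of 4 detected) overlapped in phyA-211, at 623 to 1341 TPM submerged and 792 to 2224 TPM in air. They were lower under water in ein3eil1 (550.4 to 1174 and 1420.2 to 2034 TPM) and wild type (1044 to 1129 and 1696 to 2704 TPM). Summed vascular markers (4 of 4 detected) were lower in the submerged groups of each line except for an overlap in phyA-211, at 34.2 to 62.2 and 60 to 97.2 TPM in submerged and air phyA-211, 57.6 to 70.2 and 127 to 188 TPM in submerged and air ein3eil1, and 28.7 to 30.2 and 59.4 to 86.9 TPM in submerged and air wild type. The share of TPM in small nuclear RNA genes was 0.433% to 0.533% in submerged ein3eil1 and 0.51% to 0.592% in submerged wild type, against at most 0.0375% in air ein3eil1 and 0.0553% in air wild type. In phyA-211 it was high in both conditions, at 0.329% to 1.85% submerged and 0.731% to 2.04% in air. The part of these shifts in the results was not tested. Submerged phyA-211 replicate 1 stood apart: over all tested genes it correlated at 0.957 to 0.96 with the submerged wild-type libraries and at 0.918 to 0.932 with replicates 2 and 3 of its own group. The median SD of a gene on log2(TPM + 1) was 0.359 in submerged phyA-211 and 0.097 to 0.266 in the other 5 groups. All 18 libraries share 1 estimate of the spread in the limma fit, and on simulated data in which each group kept its own spread that fit called more unchanged genes than the threshold allows in comparisons with submerged phyA-211. A fit of only the libraries compared kept close to the threshold in that simulation. The simulated noise was independent for each gene and library, and no simulated library stood apart as replicate 1 does. The simulation therefore cannot show that the second fit keeps to the threshold in the real libraries. Calls in these comparisons are given with the result of that second fit as well. In bulk leaf RNA, fewer cells of a type and less RNA per cell cannot be told apart.

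Of the 37 members, 29 reached 1 TPM in 3 or more libraries and entered the test, 23 Aux/IAA and 6 GH3. The 8 that did not are IAA15, IAA20, IAA31, IAA32, IAA33, IAA34, GH3.1 and GH3.4. GH3.4 was listed at 0 in all 18 libraries, and the others reached at most 1.08 TPM, except IAA33 with 4.98 TPM in air ein3eil1 replicate 3. IAA33 was at 0.85 TPM or less in every other library. Some members overlap a gene on the other strand (IAA3, IAA5, IAA9, IAA10, IAA11, IAA13, IAA27, IAA32 and GH3.9). As the protocol does not state that strand was kept, reads from the shared stretch cannot be told from those of the partner. The length of the shared stretch was not measured.

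**Figure D1:**
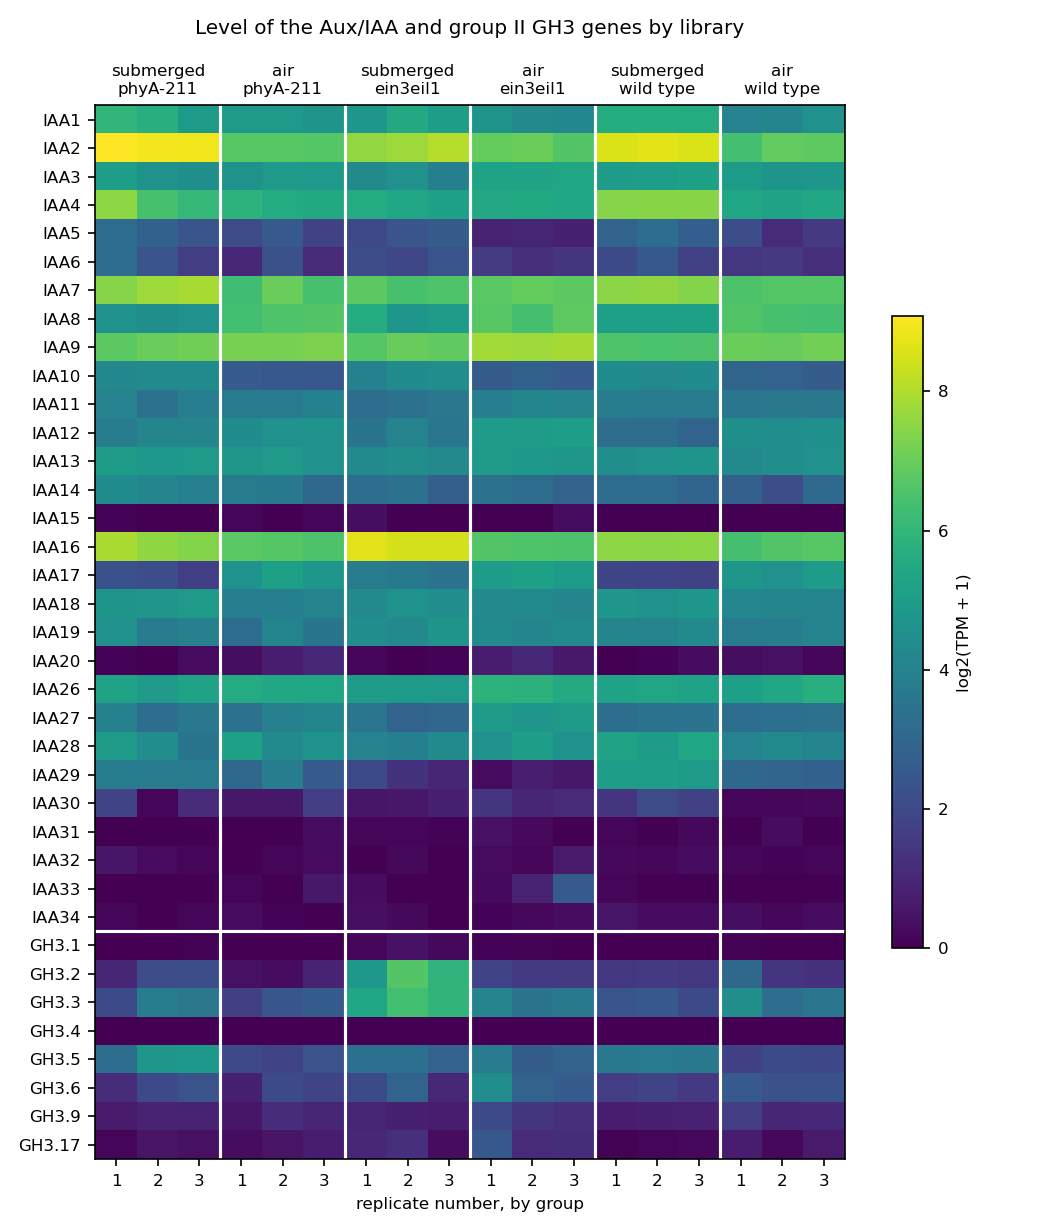
Level of the 37 members (rows) in the 18 libraries (columns, grouped by line and condition and numbered by replicate) as log2(TPM + 1), from 0 in dark violet to the highest level in yellow. IAA2, IAA7, IAA9 and IAA16 are bright in all groups, the IAA17 row darkens in each submerged group, and GH3.2 and GH3.3 are brightest in submerged ein3eil1.

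The summed Aux/IAA level was higher under water in all 3 lines, though in ein3eil1 the sum without IAA2 and IAA16 was lower. It was 1637, 1420.4 and 1377 TPM in the submerged phyA-211 libraries, against 857, 926 and 855 TPM in air phyA-211. In ein3eil1 it was 1136, 1115 and 1131 TPM under water, against 1043, 1029 and 1011 TPM in air. In wild type the sums were 1379, 1414 and 1364 TPM submerged and 764, 805 and 853 TPM in air. Submerged and air libraries did not overlap in any line, and the gap was narrow in ein3eil1, where the means were 1127 ± 10.8 TPM submerged and 1028 ± 16.2 TPM in air (SD, n = 3 each). Without IAA2 and IAA16, 2 members chosen after their values were seen, the sum of the other 27 was lower under water in ein3eil1, at 513 to 537 TPM submerged and 804 to 820.1 TPM in air. The same 27 summed to 731 to 850.1 TPM in submerged and 644 to 719.8 TPM in air phyA-211, and to 801 to 819.9 TPM in submerged and 590.1 to 636 TPM in air wild type. With 3 libraries a side an exact permutation test cannot go below p = 0.1, so no test of the sums is given.

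A handful of genes made up most of the sum, and submergence changed their order. In air, IAA9 was the most abundant Aux/IAA transcript in each line, with 17.2% of the family sum in phyA-211, 21.8% in ein3eil1 and 16.4% in wild type. Under water IAA2 led in phyA-211, with 34% of the sum, and in wild type, with 28.4%. In submerged ein3eil1 it was IAA16 that led, with 33.1%, followed by IAA2 with 20.1%. In air wild type IAA9 (126 to 141 TPM) did not overlap IAA2 (81.8 to 118 TPM), while IAA2, IAA7 and IAA16 overlapped one another. In submerged ein3eil1 the lowest IAA16 library (349 TPM) was above the highest IAA2 library (270 TPM).

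**Figure D2:**
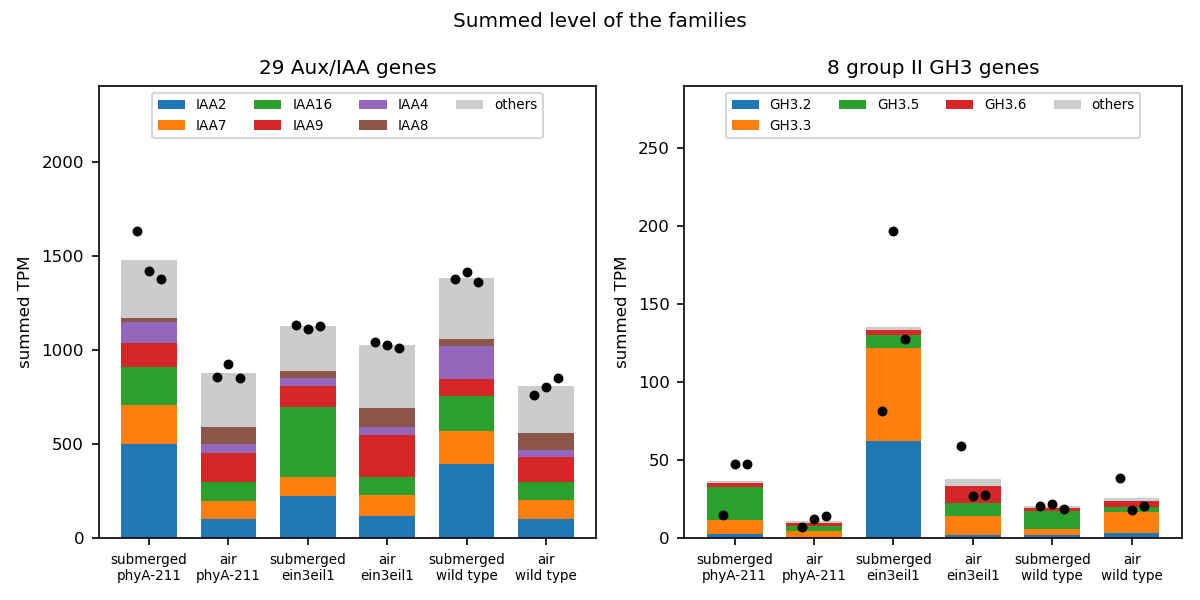
Summed TPM of the 29 Aux/IAA genes (left) and the 8 GH3 genes (right) by group, with stacked bars for group means split by the named members and black points for the sum in each of the 3 libraries. The Aux/IAA sum lies at 1377 to 1637 TPM in submerged phyA-211 and 1364 to 1414 TPM in submerged wild type, and the GH3 sum is highest in submerged ein3eil1, at 81.4 to 196.9 TPM.

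Members moved in both directions under submergence. In the limma test over all genes, 11 of the 29 tested members were called higher and 3 lower in submerged phyA-211 than in air phyA-211, where 27.3% of all 20302 genes were called higher and 23.9% lower (51.2% in either direction). In ein3eil1, 8 members were higher and 12 lower, beside 17% and 47.3% of all genes (64.2% in either direction). In wild type, 12 were higher and 5 lower, beside 18.9% and 38% of all genes (56.9% in either direction). As shares of the 29, these are 37.9% higher and 10.3% lower in phyA-211, 27.6% and 41.4% in ein3eil1, and 41.4% and 17.2% in wild type. The median log2 change of the members was 0.51 in phyA-211, -0.23 in ein3eil1 and 0.29 in wild type, against 0.07, -0.48 and -0.32 over all genes in the same order. With the phyA-211 libraries alone in the fit, 9 of the 14 calls in that line held (IAA2, IAA7, IAA8, IAA10, IAA16, IAA17, IAA18, GH3.2 and GH3.5) and 5 did not (IAA1, IAA4, IAA6, IAA12 and IAA14). The median gene shifted in each line, and the splits depended on scaling: after each library was centred on its median gene they were 8 higher and 4 lower in phyA-211, 11 and 5 in ein3eil1, and 18 and 4 in wild type. Quantile normalization gave 10 higher and 5 lower, 11 and 7, and 16 and 5 in that order of lines. Shares of all genes called after either scaling, or in any other alternative fit, are not given. Counts from these alternatives, here and below, therefore cannot be set against the shares of the reported fit. Several log2 changes kept their call but moved by more than 1.5 times after centring. In ein3eil1 these were IAA1 (1.23), IAA2 (1.47) and IAA29 (1.45), which grew, and IAA8 (-0.99), IAA9 (-0.43), IAA12 (-0.79) and IAA17 (-0.86), which shrank. In wild type IAA7 (1.32) and IAA18 (1.03) grew, and IAA8 (-0.88) and IAA12 (-0.89) shrank. A pseudocount of 0.1 TPM moved low genes as much, to 2.23 for GH3.2 in phyA-211, to 1.75 for IAA29 and -1.27 for GH3.9 in ein3eil1, and to 3.6 for IAA30 in wild type.

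Across lines, 4 members were called higher in all 3 (IAA1, IAA2, IAA10 and IAA16) and 3 lower in all 3 (IAA8, IAA12 and IAA17). IAA4, IAA7, IAA18 and GH3.5 were called higher in phyA-211 and wild type and missed the threshold in ein3eil1, and IAA5 and IAA29 were called higher in ein3eil1 and wild type. Another 7 (IAA3, IAA11, IAA13, IAA26, IAA27, GH3.6 and GH3.9) were called in ein3eil1 alone, all lower. IAA19, which acts in hypocotyl bending, and GH3.17, a glutamate-conjugating enzyme, were called in no line. Whether a response differs between lines was tested as a difference of responses and is given further on.

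**Figure D3:**
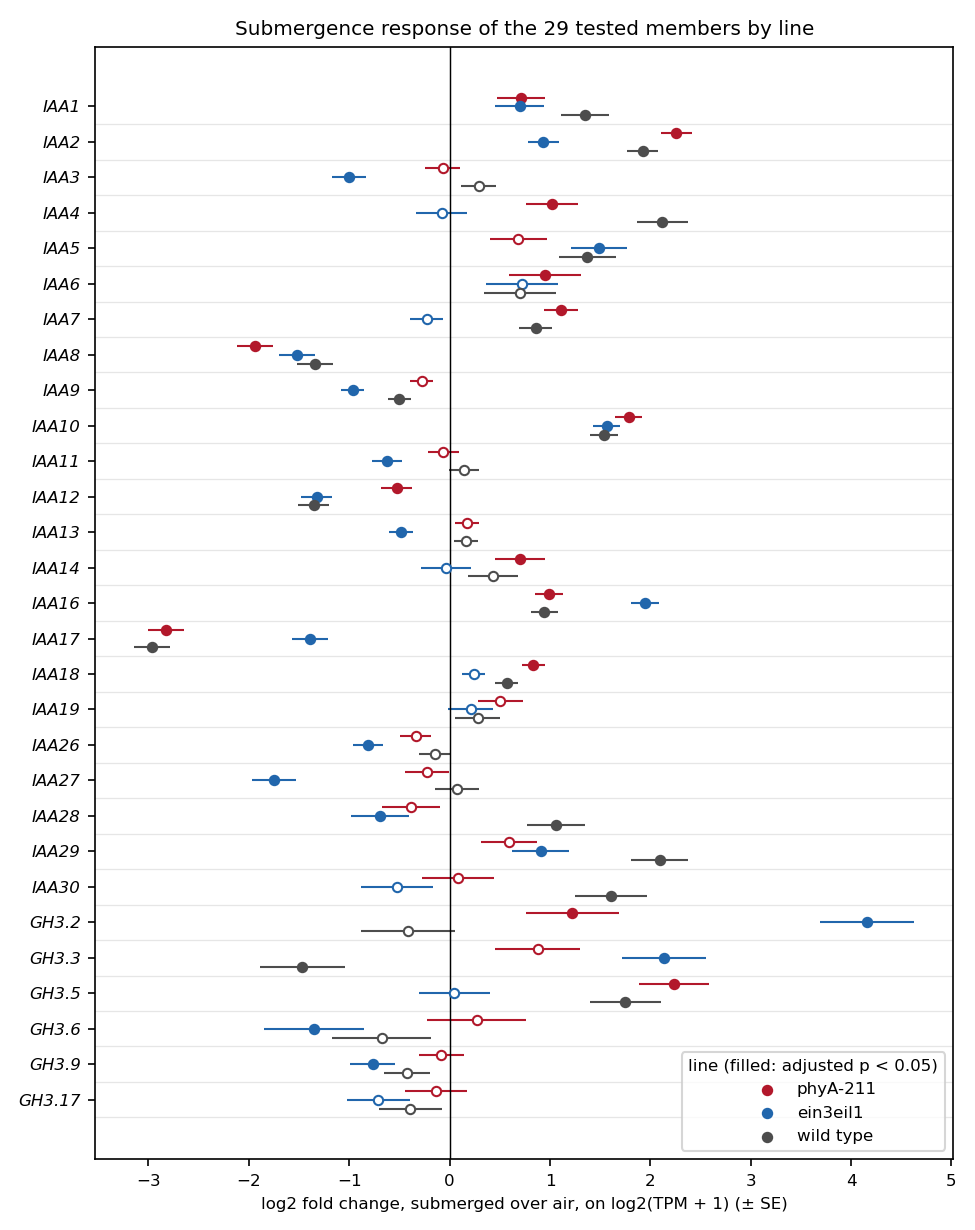
Log2 fold change of submerged over air leaves on log2(TPM + 1) (x axis) for the 29 tested members (y axis) in phyA-211 (red), ein3eil1 (blue) and wild type (grey), with bars of 1 SE and filled points where the adjusted p was under 0.05. IAA17 lies near -3 in phyA-211 and wild type and at -1.39 in ein3eil1, and GH3.2 lies at 4.16 in ein3eil1.

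IAA2 (AT3G23030), a typical auxin-induced member, had the largest gain in TPM in phyA-211 and wild type. Its level was 541, 490.2 and 477 TPM in submerged phyA-211, against 106, 105 and 102 TPM in air phyA-211. In ein3eil1 it was 192, 217 and 269.8 TPM under water, against 122, 130.3 and 99.8 TPM in air. In wild type it was 389.6, 413 and 377 TPM submerged and 81.8, 118 and 112 TPM in air. Every submerged library lay above every air library of its line, with log2 changes of 2.26 ± 0.16 in phyA-211 (SE, adjusted p = 9.32e-09), 0.94 ± 0.16 in ein3eil1 (adjusted p = 8.76e-05) and 1.93 ± 0.16 in wild type (adjusted p = 6.89e-08). IAA1, whose dominant axr5 mutation makes plants auxin resistant, was called higher as well, by 0.71 in phyA-211, 0.70 in ein3eil1 and 1.35 in wild type. The IAA1 call in phyA-211 failed without air replicate 3 or submerged replicate 1 or 2 of that line (adjusted p = 0.0707 to 0.0895) with that line alone in the fit (0.107) and after centring and quantile normalization (0.081 and 0.14), and the IAA1 call in ein3eil1 failed without air replicate 2 or 3 or submerged replicate 2 (adjusted p = 0.0616 to 0.101).

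IAA16 (AT3G04730), in which a dominant mutation restricts growth, rose most in ein3eil1. It stood at 245, 192 and 169 TPM in submerged phyA-211, against 107, 101 and 92.3 TPM in air phyA-211. Submerged ein3eil1 held 406, 364 and 349 TPM, against 100.3, 95 and 92.2 TPM in air ein3eil1. Wild type held 183, 181 and 186 TPM submerged and 83.4, 96.5 and 106 TPM in air. The groups did not overlap in any line, and the changes were 0.99 ± 0.14 in phyA-211 (adjusted p = 1.76e-05), 1.95 ± 0.14 in ein3eil1 (adjusted p = 1.08e-08) and 0.94 ± 0.14 in wild type (adjusted p = 2.99e-05). IAA10 rose by a like amount in each line, by 1.79, 1.57 and 1.54 in phyA-211, ein3eil1 and wild type, with 18.1 to 19.5, 14.8 to 20.9 and 18.3 to 20.5 TPM submerged against 4.51 to 5.08, 5.12 to 6.06 and 5.45 to 6.54 TPM in air.

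IAA17 (AT1G04250), known as AXR3 from auxin-resistant mutants, had the largest fall of any member on the log2 scale in phyA-211 and wild type, while IAA8 lost more TPM. It had 3.88, 3.42 and 2.20 TPM in submerged phyA-211, against 24.2, 34.9 and 26.4 TPM in air phyA-211. Submerged ein3eil1 had 13.2, 11.7 and 10.1 TPM, against 30.7, 35.7 and 30.2 TPM in air ein3eil1. Submerged wild type had 2.73, 2.54 and 2.49 TPM, against 26.9, 23.4 and 31.1 TPM in air wild type. The groups stood apart in every line, and its log2 changes were -2.83 in phyA-211 (adjusted p = 3.53e-09), -1.39 in ein3eil1 (adjusted p = 6.56e-06) and -2.96 in wild type (adjusted p = 3.21e-09). IAA8, a regulator of lateral root formation, went the same way: 24.0, 22.2 and 23.0 TPM in submerged phyA-211 against 79.7 to 100.6 TPM in air, in ein3eil1 48.5, 26.4 and 31.2 TPM under water against 84.1 to 114 TPM in air, and 34.3, 33.7 and 34.6 TPM in submerged wild type against 81.8 to 98.2 TPM in air. Its log2 changes were -1.94, -1.52 and -1.34 in those lines. IAA12, known as BODENLOS for its part in embryonic root formation, changed by -0.53, -1.32 and -1.35, and with the phyA-211 libraries alone in the fit its call in that line failed (adjusted p = 0.0884).

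IAA4 and IAA29 were far lower in submerged ein3eil1 than in submerged wild type. IAA4 (AT5G43700) had 184, 85.7 and 65.6 TPM in submerged phyA-211, against 57.4, 46.8 and 44.8 TPM in air phyA-211. The ein3eil1 libraries had 47.6, 40.1 and 35.5 TPM of IAA4 under water, against 43.3, 44.6 and 41.4 TPM in air. Wild type had 172, 177 and 176 TPM submerged, against 40.3, 36.8 and 41.9 TPM in air. The groups stood apart in phyA-211 (log2 change 1.02 ± 0.26, adjusted p = 0.00339) and in wild type (2.12 ± 0.26, adjusted p = 4.88e-06) and overlapped in ein3eil1 (-0.08, adjusted p = 0.807). In submerged phyA-211, replicate 1 exceeded the sum of replicates 2 and 3, and with the phyA-211 libraries alone in the fit the call failed (adjusted p = 0.08). Without submerged phyA-211 replicate 1 the change was 0.59 (adjusted p = 0.00242).

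IAA29 (AT4G32280), a gene known for its induction by shade through PIF transcription factors, had 13.3, 12.2 and 11.9 TPM in submerged phyA-211, against 7.30, 13.3 and 5.01 TPM in air phyA-211. Submerged ein3eil1 had 3.16, 1.49 and 0.96 TPM, against 0.20, 0.71 and 0.49 TPM in air ein3eil1. Submerged wild type had 33.1, 33.0 and 30 TPM, against 7.42, 6.84 and 5.99 TPM in air wild type. IAA29 was thus low in ein3eil1 whatever the condition, and its phyA-211 groups overlapped. The changes were 0.59 ± 0.28 in phyA-211 (adjusted p = 0.0937), 0.91 ± 0.28 in ein3eil1 (adjusted p = 0.0108) and 2.09 ± 0.28 in wild type (adjusted p = 1.61e-05), where the pseudocount of 1 TPM shrinks the change of a gene as low as IAA29 in ein3eil1. The ein3eil1 call failed without submerged ein3eil1 replicate 1 (adjusted p = 0.0705).

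**Figure D4:**
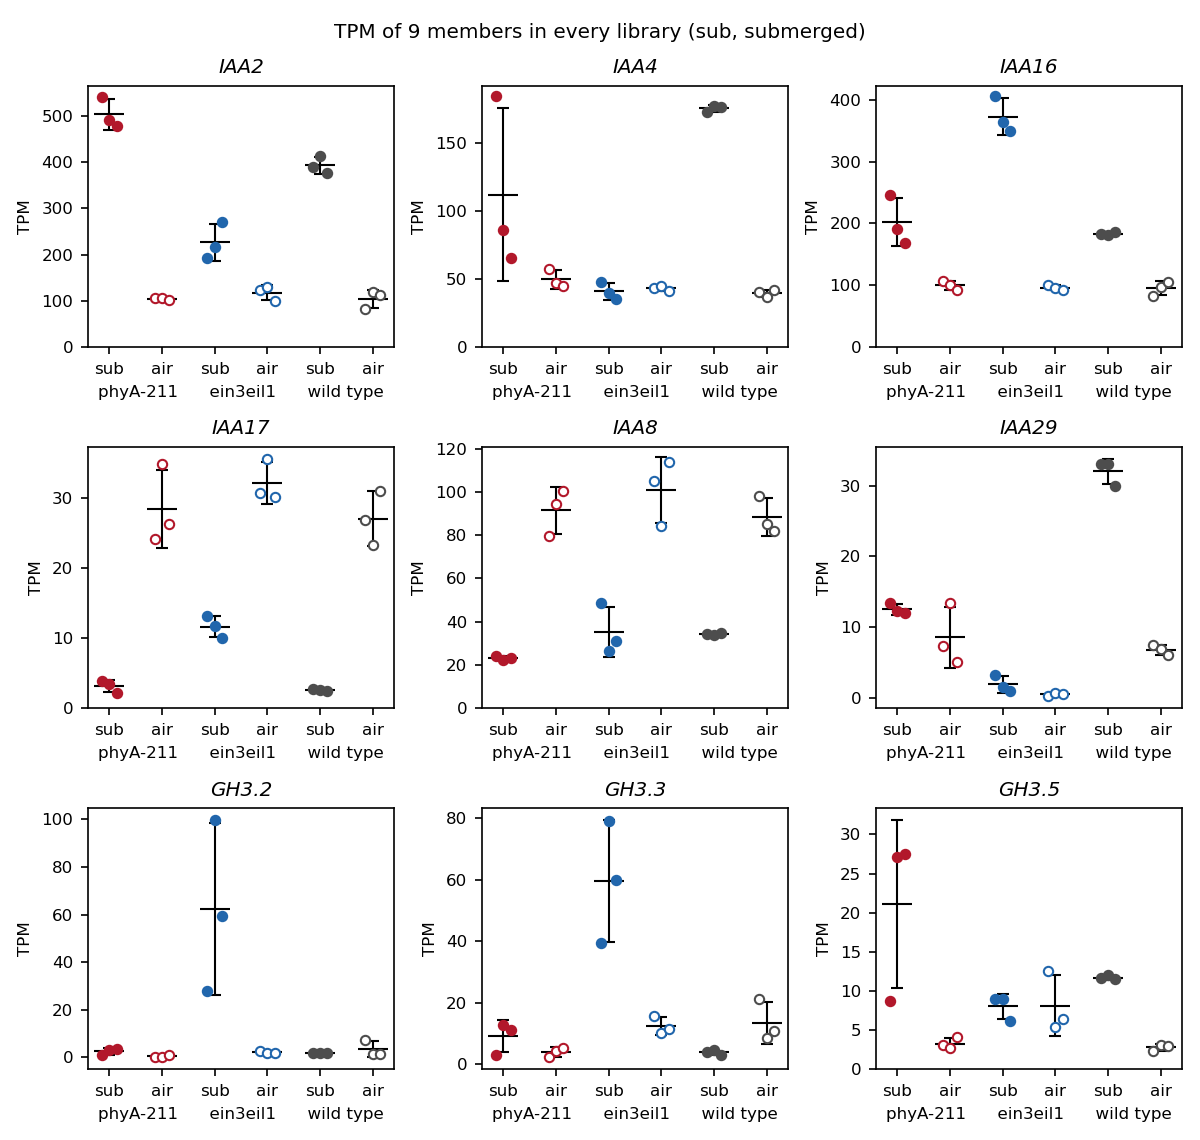
TPM of 9 members in every library, with filled points for submerged and open points for air libraries of phyA-211 (red), ein3eil1 (blue) and wild type (grey), and bars for the mean ± SD of 3 libraries. IAA4 lies at 172 to 177 TPM in submerged wild type and at 35.5 to 47.6 TPM in submerged ein3eil1, while GH3.2 is at 27.9 to 99.7 TPM in submerged ein3eil1 and at most 7.34 TPM elsewhere.

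IAA7, the AXR2 gene of auxin-resistant dwarf plants, and IAA18 rose in phyA-211 and wild type. IAA7 had 173, 214 and 235 TPM in submerged phyA-211 against 78.1, 127 and 85.8 TPM in air, in ein3eil1 110.02, 85.7 and 95.8 TPM under water against 108, 123 and 110.2 TPM in air, and 179.9, 189.9 and 169 TPM in submerged wild type against 92.5, 102 and 101 TPM in air. The IAA7 groups stood apart in phyA-211 (1.11, adjusted p = 4.30e-05) and wild type (0.86, adjusted p = 0.000449) and overlapped in ein3eil1 (-0.23, adjusted p = 0.244). IAA18 changed by 0.83 in phyA-211, 0.24 in ein3eil1 (adjusted p = 0.0785) and 0.57 in wild type. Low in all groups, IAA5 changed by 0.68 in phyA-211 (adjusted p = 0.0543), 1.49 in ein3eil1 and 1.37 in wild type, the last 2 called. IAA28, a repressor of lateral root founding, had 31.8 to 39.4 TPM in submerged and 15.2 to 19.4 TPM in air wild type (1.06, adjusted p = 0.00572), and IAA30, which lacks the degron codons, had 1.59 to 3.3 and 0.08 to 0.15 TPM (1.61, adjusted p = 0.0013).

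A set of Aux/IAA genes was called lower in ein3eil1 alone. IAA27 changed by -1.75 in ein3eil1 (adjusted p = 4.94e-06), with 10.7, 6.38 and 6.91 TPM under water and 31.3, 26.3 and 28.5 TPM in air. It stood at 8.65 to 15.1 TPM in submerged and 9.76 to 17.2 TPM in air phyA-211, and at 8.74 to 10.04 TPM in submerged and 8.64 to 9.42 TPM in air wild type, with overlap in both lines. IAA3, known as SHY2, was at 14.2 to 23.1 TPM in submerged and 37 to 40.8 TPM in air ein3eil1 (fold 0.499, adjusted p = 0.000127). IAA26, which a viral replicase binds, fell by 0.82, IAA11 by 0.62 and IAA13 by 0.49. After median centring the last 3 and IAA3 were no longer called, with IAA3 at -0.47, IAA26 at -0.28, IAA11 at -0.09 and IAA13 at 0.05, while IAA27 stayed called. IAA9 was lower in ein3eil1 (-0.97, adjusted p = 2.64e-06) and in wild type (-0.50, adjusted p = 0.00148), and after centring the wild-type value was -0.04 and not called. The IAA28 call in ein3eil1 (-0.70, adjusted p = 0.0451) failed without any of 13 single libraries, among them all 9 air or submerged wild-type and air ein3eil1 libraries, with adjusted p up to 0.163. It also failed at -0.16 after centring (adjusted p = 0.732), at -0.33 under quantile normalization (adjusted p = 0.444), with no filter on low values (0.0607) and with replicate number as a block (0.0532).

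The calls of IAA6 and IAA14 under submergence, made in phyA-211 alone, each rested on single libraries. IAA6 (0.95, adjusted p = 0.036) had 8.36, 4.12 and 2.10 TPM in submerged and 1.07, 3.73 and 1.1 TPM in air phyA-211, and the groups overlapped. It failed without air replicate 1 or 3 or submerged replicate 1 or 2, with adjusted p of 0.0684 to 0.171, with the phyA-211 libraries alone (0.185), after centring (0.0946) and with no filter (0.0508). IAA14, the SOLITARY-ROOT gene, had 20.4, 16.9 and 14.7 TPM against 12.2, 11.6 and 7.42 TPM (0.70, adjusted p = 0.0275) and failed without air replicate 3 or submerged replicate 1 or 2, with adjusted p of 0.0571 to 0.138, with the phyA-211 libraries alone (0.0799) and after centring and quantile normalization (0.0728 and 0.0828).

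Among the GH3 enzymes, GH3.2 and GH3.3 rose many-fold in submerged ein3eil1. The 3 submerged ein3eil1 libraries had 27.9, 99.7 and 59.2 TPM of GH3.2 (AT4G37390), and those in air 2.57, 1.89 and 1.95 TPM. It was at 0.95, 3.23 and 3.56 TPM in submerged and 0.32, 0.22 and 0.83 TPM in air phyA-211, and at 1.77, 1.92 and 1.78 TPM in submerged and 7.34, 1.59 and 1.46 TPM in air wild type. The submerged ein3eil1 libraries lay above all others, with a change of 4.16 ± 0.47 (adjusted p = 1.74e-06), a 17.9-fold difference on TPM + 1. In wild type the groups overlapped (-0.41, adjusted p = 0.469). The phyA-211 call (1.22, adjusted p = 0.0391) failed without air replicate 1 or 2 or submerged replicate 2 or 3 (adjusted p = 0.088 to 0.131) with replicate number as a block (adjusted p = 0.0548) and with no filter on low values (0.0568).

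GH3.3 (AT2G23170), which with GH3.5 and GH3.6 acts in adventitious rooting, was measured in ein3eil1 at 39.5, 79.3 and 60.04 TPM under water and 15.7, 10.3 and 11.4 TPM in air. Submerged phyA-211 had 3.14, 12.9 and 11.2 TPM, against 2.32, 4.42 and 5.31 TPM in air phyA-211. Submerged wild type had 4.15, 4.67 and 3.08 TPM, against 21.3, 8.52 and 10.9 TPM in air wild type. GH3.3 thus lay higher under water in ein3eil1 (2.14 ± 0.42, adjusted p = 0.000404), lower in wild type (-1.47 ± 0.42, adjusted p = 0.00785), and overlapped in phyA-211 (0.88, adjusted p = 0.0954). The wild-type call just failed without air wild-type replicate 1 (adjusted p = 0.0502).

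GH3.5 (AT4G27260), an enzyme that also conjugates salicylic acid, showed the other pattern. It had 8.68, 27.1 and 27.6 TPM in submerged phyA-211, against 3.03, 2.65 and 4.06 TPM in air phyA-211. In ein3eil1 it had 8.93, 8.96 and 6.19 TPM submerged and 12.6, 5.40 and 6.39 TPM in air. In wild type it had 11.6, 11.99 and 11.5 TPM submerged and 2.28, 3.1 and 2.96 TPM in air. The groups stood apart in phyA-211 (2.24 ± 0.35, adjusted p = 6.27e-05) and wild type (1.75 ± 0.35, adjusted p = 0.000556) and overlapped in ein3eil1 (0.05, adjusted p = 0.913). GH3.6, at 1.02 to 6.43 TPM in submerged and 5.29 to 20.8 TPM in air ein3eil1, was called lower there though its ranges overlapped (-1.35, adjusted p = 0.0256), and failed without air replicate 1 or submerged replicate 1 or 3 of that line (adjusted p = 0.0512 to 0.16). GH3.6 was also not called with the ein3eil1 libraries alone in the fit (0.0981), at -0.82 after centring (adjusted p = 0.124) or at -0.83 under quantile normalization (adjusted p = 0.147). The GH3.9 call in ein3eil1 (-0.77, adjusted p = 0.00754) failed without air ein3eil1 replicate 1 (adjusted p = 0.0518) and stood at -0.23 after centring (adjusted p = 0.364) and -0.34 under quantile normalization (adjusted p = 0.149).

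Under water most of the GH3 sum in ein3eil1 was GH3.2 and GH3.3, while in phyA-211 and wild type GH3.5 was its largest member. The sum was 36.6 ± 18.9 TPM in submerged and 11.2 ± 3.66 TPM in air phyA-211, 135 ± 58.1 TPM in submerged and 37.98 ± 18.5 TPM in air ein3eil1, and 20.5 ± 1.54 TPM in submerged and 25.8 ± 11.0 TPM in air wild type (SD, n = 3 each). Submerged and air sums did not overlap in either mutant, and in wild type all 3 submerged sums (19.1 to 22.1 TPM) lay inside the range of air (18.1 to 38.4 TPM).

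The promoters of these 3 GH3 genes are shown because the genes moved apart, and the letters of motifs named for auxin response factors and light- or stress-responsive bZIP and bHLH factors were looked up in them. Motifs searched on both strands of the 250 bases before each RefSeq gene start in TAIR10.1 were TGTCTC (the classical auxin response element), TGTCGG (a form that ARF proteins bind more strongly in vitro) and CACGTG (the G-box, its own reverse complement). Matches are in capitals, the gene start follows the last base, and the windows are chr4:17579368-17579617 on the forward strand for GH3.2, chr2:9866563-9866812 on the reverse strand for GH3.3 and chr4:13653329-13653578 on the forward strand for GH3.5.
GH3.2: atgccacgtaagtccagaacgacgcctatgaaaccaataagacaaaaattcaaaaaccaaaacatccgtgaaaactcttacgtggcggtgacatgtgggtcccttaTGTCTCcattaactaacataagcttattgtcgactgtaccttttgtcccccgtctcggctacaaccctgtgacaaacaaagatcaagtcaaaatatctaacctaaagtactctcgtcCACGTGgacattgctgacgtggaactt
GH3.3: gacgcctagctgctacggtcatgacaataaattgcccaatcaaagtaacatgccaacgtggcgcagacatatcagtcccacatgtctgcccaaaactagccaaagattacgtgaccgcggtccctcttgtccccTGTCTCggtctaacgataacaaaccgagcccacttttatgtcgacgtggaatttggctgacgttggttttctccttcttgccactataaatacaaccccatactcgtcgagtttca
GH3.5: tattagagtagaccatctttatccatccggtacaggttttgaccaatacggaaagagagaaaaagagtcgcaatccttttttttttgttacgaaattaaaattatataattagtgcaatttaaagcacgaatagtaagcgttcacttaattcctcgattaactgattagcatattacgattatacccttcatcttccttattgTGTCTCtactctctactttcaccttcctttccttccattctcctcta
TGTCTC was found in 12 of the 37 member windows (32.4%), among them all 3 shown, against 10.9% of the 27437 windows of all genes. TGTCGG was in 6 (16.2%) against 4.16% of all windows, and CACGTG in 5 (13.5%) against 6.49%. Of the 3 GH3 genes shown, GH3.2 alone also holds CACGTG, and the windows of IAA2, IAA4, IAA17 and IAA29 hold none of the motifs. A match is a description of the letters and not a bound site. By position, 3 pairs of members stand next to each other, each transcribed away from its partner with 1 gene between: IAA3 and IAA17 on chromosome 1 with 6388 bases between them, IAA2 and IAA7 on chromosome 3 with 12510, and IAA14 and IAA1 on chromosome 4 with 10732. In wild type IAA2 and IAA7 were both called higher under water, while IAA17 fell and IAA3 stood at 0.29 (adjusted p = 0.166).

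In air, phyA-211 had 0 members called against air wild type in the limma test, where 4.01% of all genes were called (1.63% higher and 2.38% lower), and 8 of the 29 had an unadjusted p under 0.05, beside 15.9% of all genes. These 8 were IAA1, IAA10, IAA13, IAA14, IAA27, IAA30, GH3.2 and GH3.3. The furthest was GH3.3, at 2.32, 4.42 and 5.31 TPM in air phyA-211 and 21.3, 8.52 and 10.9 TPM in air wild type, which did not overlap (-1.49 ± 0.42, adjusted p = 0.0626). GH3.2 was likewise lower in each phyA-211 library, at 0.22 to 0.83 TPM against 1.46 to 7.34 TPM (-1.39 ± 0.47, adjusted p = 0.122).

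Under water, 3 members were called higher (IAA9, IAA12 and IAA14) and 4 lower (IAA4, IAA8, IAA28 and IAA29) in phyA-211 than in wild type, beside 32.7% and 6.44% of all genes (39.1% in either direction). The median change was 0.12 over members and 0.29 over all genes, and centring on the median gene gave 1 higher and 9 lower. IAA29 stood at 11.9 to 13.3 TPM in submerged phyA-211 and 30 to 33.1 TPM in submerged wild type, with no overlap (-1.29 ± 0.28, adjusted p = 0.00461). IAA12 stood at 12.9, 16.4 and 16.7 TPM in submerged phyA-211 and 8.60, 8.84 and 6.67 TPM in submerged wild type, also apart (0.86 ± 0.15, adjusted p = 0.0015). These calls of IAA12 and IAA29 held under every alternative run, including the fit of only the 6 libraries compared, though IAA12 moved to 0.39 after centring and 0.37 after quantile normalization. Centring moved IAA4 to -1.25, IAA8 to -1.01 and IAA28 to -1.36.

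IAA14 (1.05, adjusted p = 0.00658) was at 14.7 to 20.4 TPM in submerged phyA-211 and 6.60 to 8.46 TPM in submerged wild type, and was lost after median centring (0.59, adjusted p = 0.115) and quantile normalization. IAA9 (0.42) turned to -0.05 after centring and failed without submerged phyA-211 replicate 2 or 3 (adjusted p = 0.0543 and 0.0629). IAA4 (-0.78, adjusted p = 0.0257), whose ranges overlapped, IAA8 (-0.55, adjusted p = 0.0267) and IAA28 (-0.89, adjusted p = 0.025) each failed without submerged phyA-211 replicate 2 or 3. They failed also without submerged wild-type replicate 1 or 3, and IAA4 and IAA8 without replicate 2, with adjusted p up to 0.153. With the 6 libraries compared alone in the fit, 4 members were called (IAA8, IAA12, IAA14 and IAA29), and IAA4, IAA9 and IAA28 were not (adjusted p = 0.162, 0.0894 and 0.127). Leaving out submerged phyA-211 replicate 1, which lies near the wild type, gave 11 calls and an IAA4 change of -1.21, and leaving out replicate 2 gave 3 calls.

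In air, 9 members were called higher (IAA3, IAA9, IAA11, IAA12, IAA13, IAA27, IAA30, GH3.5 and GH3.17) and 1 lower (IAA29) in ein3eil1 than in wild type, beside 25.6% and 2.73% of all genes (28.3% in either direction). The median change was 0.32 over members and 0.37 over all genes, and centring left 1 higher and 4 lower, quantile normalization 2 and 4. Calls that held under every alternative were those of IAA27 and IAA29. IAA27 had 31.3, 26.3 and 28.5 TPM in air ein3eil1, against 8.64, 9.03 and 9.42 TPM in air wild type (1.56 ± 0.22, adjusted p = 0.000376). IAA29 had 0.20, 0.71 and 0.49 TPM in air ein3eil1, against 7.42, 6.84 and 5.99 TPM in air wild type (-2.41 ± 0.28, adjusted p = 0.000121). Both stood clear of the wild type in every library, and a pseudocount of 0.1 TPM moved IAA29 to -3.70.

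The other 8 calls in air ein3eil1 were all of members whose ranges did not overlap those of air wild type. That adds no support to the calls, since the members were picked by them and no share of all genes is given. IAA9 had 213 to 233 TPM in air ein3eil1 and 126 to 141 TPM in air wild type (0.76, adjusted p = 0.000616), and lost its call after centring (0.32, adjusted p = 0.0721). IAA12 had 30.7 to 32.7 and 21.1 to 22.5 TPM, IAA13 27.3 to 29.1 and 19.3 to 23.4 TPM, IAA11 14.2 to 16.9 and 10.96 to 11.6 TPM, IAA3 37 to 40.8 and 25.2 to 29.6 TPM, and IAA30 0.93 to 1.64 and 0.08 to 0.15 TPM in air ein3eil1 and air wild type. Among the GH3 genes, GH3.5 had 5.40 to 12.6 and 2.28 to 3.1 TPM, and GH3.17 had 1.17 to 4.52 and 0.15 to 0.62 TPM. None of these 7 was called after centring or quantile normalization, and leaving out 1 library ended the call of each: any of the 6 libraries compared for IAA3, IAA11, IAA12 and IAA30, and 5 of the 6 for IAA13 (all but air wild-type replicate 3), with adjusted p of 0.0503 to 0.146. GH3.5 failed without any 1 of the air wild-type libraries or air ein3eil1 replicate 1 (adjusted p up to 0.108), and GH3.17 without air wild-type replicate 2 or air ein3eil1 replicate 1 (0.0927 and 0.101). IAA3, IAA11 and IAA30 were also not called with replicate number as a block (0.0641, 0.0603 and 0.0523) or with no filter on low values (0.058, 0.0506 and 0.0588), IAA3 and IAA11 with a pseudocount of 0.1 TPM (0.0556 and 0.0541), and GH3.17 with only the 6 libraries compared (0.0504). That pseudocount moved IAA30 to 2.70 and GH3.17 to 2.03. In the same groups the vascular marker sum was 127 to 188 TPM in air ein3eil1 and 59.4 to 86.9 TPM in air wild type, and that of meristem and dividing-cell markers 13.2 to 41.3 and 3.65 to 13.7 TPM, with all 4 of each list detected. The part of these in the calls was not tested.

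Under water, 6 members were higher (IAA9, IAA12, IAA16, IAA17, GH3.2 and GH3.3) and 7 lower (IAA2, IAA3, IAA4, IAA7, IAA28, IAA29 and IAA30) in ein3eil1 than in wild type, beside 28.5% and 16% of all genes (44.5% in either direction). The median change was -0.24 over members and 0.19 over all genes, and centring gave 4 higher and 15 lower, quantile normalization 4 and 14. All 13 had ranges that did not overlap between submerged ein3eil1 and submerged wild type. As they were picked by their calls, and the share of all genes without overlap is not given, this adds no support. GH3.2 was 19.8-fold higher on TPM + 1, at 27.9 to 99.7 against 1.77 to 1.92 TPM (4.31 ± 0.47, adjusted p = 2.66e-06), and GH3.3 11.9-fold higher, at 39.5 to 79.3 against 3.08 to 4.67 TPM (3.57 ± 0.42, adjusted p = 6.37e-06). IAA29 was at 0.96 to 3.16 against 30 to 33.1 TPM (-3.6 ± 0.28, adjusted p = 9.27e-08) and IAA4 at 35.5 to 47.6 against 172 to 177 TPM (-2.08 ± 0.26, adjusted p = 9.40e-06). IAA17 was at 10.1 to 13.2 against 2.49 to 2.73 TPM (1.81 ± 0.18, adjusted p = 9.31e-07) and IAA16 at 349 to 406 against 181 to 186 TPM (1.02 ± 0.14, adjusted p = 2.21e-05).

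Of the others in submerged ein3eil1, IAA2 (-0.81), IAA3 (-0.81), IAA7 (-0.89) and IAA28 (-1.12) kept their calls under every alternative run, as did the 6 genes just given, of which IAA16 moved to 0.65 after centring. IAA30 (-1.12, adjusted p = 0.0185) stood at 0.43 to 0.72 against 1.59 to 3.3 TPM and failed without submerged wild-type replicate 2 or submerged ein3eil1 replicate 1 or 2 (adjusted p = 0.052 to 0.0788), and it stood at -1.93 with a pseudocount of 0.1 TPM. IAA12 (0.54, adjusted p = 0.0101) failed after both scalings and without submerged wild-type replicate 3 or submerged ein3eil1 replicate 2 (adjusted p = 0.0583 and 0.0642). IAA9 (0.29, adjusted p = 0.0467) turned to -0.08 after centring, failed after quantile normalization (0.487) and with replicate number as a block (0.053), and failed without any of 14 single libraries, with adjusted p up to 0.176.

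Tested as a difference of responses, phyA-211 minus wild type, 2 members were higher (IAA12 and GH3.3) and 4 lower (IAA4, IAA28, IAA29 and IAA30), beside 20.4% and 4.19% of all genes (24.6% in either direction), whose median difference was 0.35. Centring gave 1 higher and 5 lower, and quantile normalization 1 and 4. The response of IAA29 was 0.59 in phyA-211 and 2.09 in wild type, that of IAA28 was -0.39 and 1.06, that of IAA30 0.09 and 1.61, and that of GH3.3 0.88 and -1.47. Each of the 6 calls failed without submerged phyA-211 replicate 2 and without replicate 3, with adjusted p of 0.0553 to 0.107, and leaving out replicate 2 left 0 calls, while leaving out replicate 1 gave 9. With only the libraries of phyA-211 and wild type in the fit, 3 were called (IAA12, IAA29 and GH3.3), and IAA4, IAA28 and IAA30 were not (adjusted p = 0.0891, 0.0618 and 0.09). IAA12 lost its call after centring (0.28, adjusted p = 0.207) and quantile normalization (0.25, adjusted p = 0.272), IAA29 with a pseudocount of 0.1 TPM (-1.58, adjusted p = 0.0548), and IAA4 and IAA30 with no filter on low values (0.0579 and 0.0576). IAA30 stood at -3.72 with that pseudocount and -2.96 with library weights. For members that were not called, such as IAA2 (difference 0.33, adjusted p = 0.257) and IAA17 (0.13, adjusted p = 0.705), the SE of the difference was 0.22 and 0.25.

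The difference of responses between ein3eil1 and wild type was called for 17 of the 29 members, 4 higher (IAA16, IAA17, GH3.2 and GH3.3) and 13 lower, beside 10.8% and 16.6% of all genes (27.4% in either direction). The median difference was -0.47 over members and -0.20 over all genes. Largest were GH3.2 (4.58 ± 0.66, adjusted p = 0.00014), whose own response was 4.16 in ein3eil1 and -0.41 in wild type, and GH3.3 (3.6 ± 0.60, adjusted p = 0.000445), at 2.14 and -1.47. IAA4 responded by -0.08 in ein3eil1 and 2.12 in wild type, a difference of -2.20 ± 0.36 (adjusted p = 0.000424). IAA17, which fell in both lines, fell less in ein3eil1 (difference 1.57 ± 0.25, adjusted p = 0.000345), and IAA16 rose more (1.00 ± 0.19, adjusted p = 0.00136). IAA27 (-1.83), IAA28 (-1.75), IAA30 (-2.13), IAA3 (-1.29), IAA7 (-1.09) and IAA2 (-0.99) also kept their calls under every alternative, with IAA30 at -4.63 for a pseudocount of 0.1 TPM. GH3.5 (-1.70, adjusted p = 0.0183) failed without air ein3eil1 replicate 1 (adjusted p = 0.0517), a library with 12.6 TPM of GH3.5 where its 2 companions had 5.40 and 6.39 TPM.

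The smaller differences of response between ein3eil1 and wild type depended on scaling or on single libraries. IAA11 (-0.77) and IAA13 (-0.65) were lost after both scalings, with adjusted p of 0.0625 to 0.0993. IAA26 (-0.67) was lost after both scalings and without any of 7 single libraries (adjusted p up to 0.134). IAA9 (-0.47) was lost after centring and without any of 12 single libraries, with adjusted p up to 0.0956. IAA29 (-1.18, adjusted p = 0.0385) was lost with a pseudocount of 0.1 TPM, where the difference was -0.48 (adjusted p = 0.593), after both scalings, with no filter (0.0513), and without any of 9 single libraries, with adjusted p up to 0.0998. On the log scale the low level of IAA29 in both ein3eil1 groups makes its response there depend on the pseudocount, while its low level in ein3eil1 does not.

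In ein3eil1 and wild type most of the called genes elsewhere in the auxin pathway were lower under water. Of 56 tested genes on lists of receptors, co-repressors, ARF factors, synthesis, conversion, hydrolase, other GH3 and transport genes, 13 were called higher and 12 lower in submerged phyA-211, 7 and 38 in submerged ein3eil1, and 6 and 30 in submerged wild type. Those are 23.2% and 21.4%, 12.5% and 67.9%, and 10.7% and 53.6% of the lists, against the shares of all genes given above. With the phyA-211 libraries alone in the fit, 6 were higher and 8 lower in that line, with 1 receptor higher, 1 activating ARF gene lower, and 2 transport genes higher and 1 lower. After centring the counts were 16 higher and 19 lower in phyA-211, 9 and 29 in ein3eil1, and 10 and 22 in wild type, and after quantile normalization 13 and 16, 8 and 30, and 9 and 20. Among the 6 auxin receptors, which bind the degron, 3 rose in phyA-211, 5 fell in ein3eil1, and 1 rose and 2 fell in wild type. AFB1 was at 15.1 to 18.2 TPM in submerged and 2.49 to 5.76 TPM in air phyA-211 (1.75), 5.55 to 10.4 and 7.22 to 11.4 TPM in ein3eil1 (-0.30, adjusted p = 0.293), and 12.04 to 13.2 and 3.70 to 4.66 TPM in wild type (1.41). TIR1 fell by 1.75 in ein3eil1, at 10.4 to 13.2 against 36.7 to 43.4 TPM.

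Among the partners of Aux/IAA proteins, 0 of 5 TOPLESS genes were called in phyA-211 by limma at the adjusted threshold and 2 at an unadjusted p under 0.05 (TPL and TPR3), beside 56.6% of all genes at that p. After either scaling TPL was called higher there and 2 TOPLESS genes lower. In phyA-211 the activating ARF genes had 1 call higher and 2 lower. In ein3eil1 4 of 5 TOPLESS and 3 of 5 activating ARF genes fell, and in wild type as many of each, with 2 to 4 TOPLESS and 2 or 3 activating ARF genes lower in these lines after scaling. ARF8 stood at 2.55 to 5.75 TPM in submerged and 5.26 to 11.8 TPM in air phyA-211, 3.02 to 3.89 and 13.8 to 22.3 TPM in ein3eil1, and 1.83 to 2.52 and 6.79 to 9.79 TPM in wild type. YUC5, which encodes an enzyme of auxin synthesis, rose in each line (3.34, 2.20 and 2.44 in phyA-211, ein3eil1 and wild type). Genes of other routes of auxin disposal and release went both ways in ein3eil1, with 2 of 5 oxidation, methylation and glucosylation genes higher and 2 lower, and 2 of 6 conjugate hydrolase genes higher and 3 lower. The auxin oxidase gene DAO1 was at 31.2 to 62.2 TPM in submerged and 15.1 to 18.2 TPM in air ein3eil1 (1.29, adjusted p = 0.000152), and at 7.27 to 7.67 and 15.5 to 19.3 TPM in submerged and air wild type (-1.14). IAMT1 and UGT74D1, of the same list, were lower in ein3eil1 (-0.95 and -0.57). Another gene of that list had the largest change on these pathway lists in ein3eil1, at 8.23. The highest change on the list was 0.58 in phyA-211 and 0.26 in wild type. Among the hydrolases, which free auxin from conjugates, IAR3 was at 405 to 776 TPM in submerged and 109 to 128 TPM in air ein3eil1 (2.18, adjusted p = 1.89e-06), while ILR1, ILL1 and ILL3 were lower (-0.76, -1.07 and -0.70). After centring no oxidation, methylation and glucosylation gene was called lower in ein3eil1, and hydrolase genes had 3 calls higher and 1 lower. JAR1, the GH3 enzyme that conjugates jasmonate, was lower in each line (-1.33, -2.80 and -2.55 in phyA-211, ein3eil1 and wild type), and of the 10 transport genes tested, 2 rose and 3 fell in phyA-211, all 10 fell in ein3eil1, and 2 rose and 2 fell in wild type. After centring, 9 transport genes were called lower in ein3eil1, and 3 higher in wild type.

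**Figure D5:**
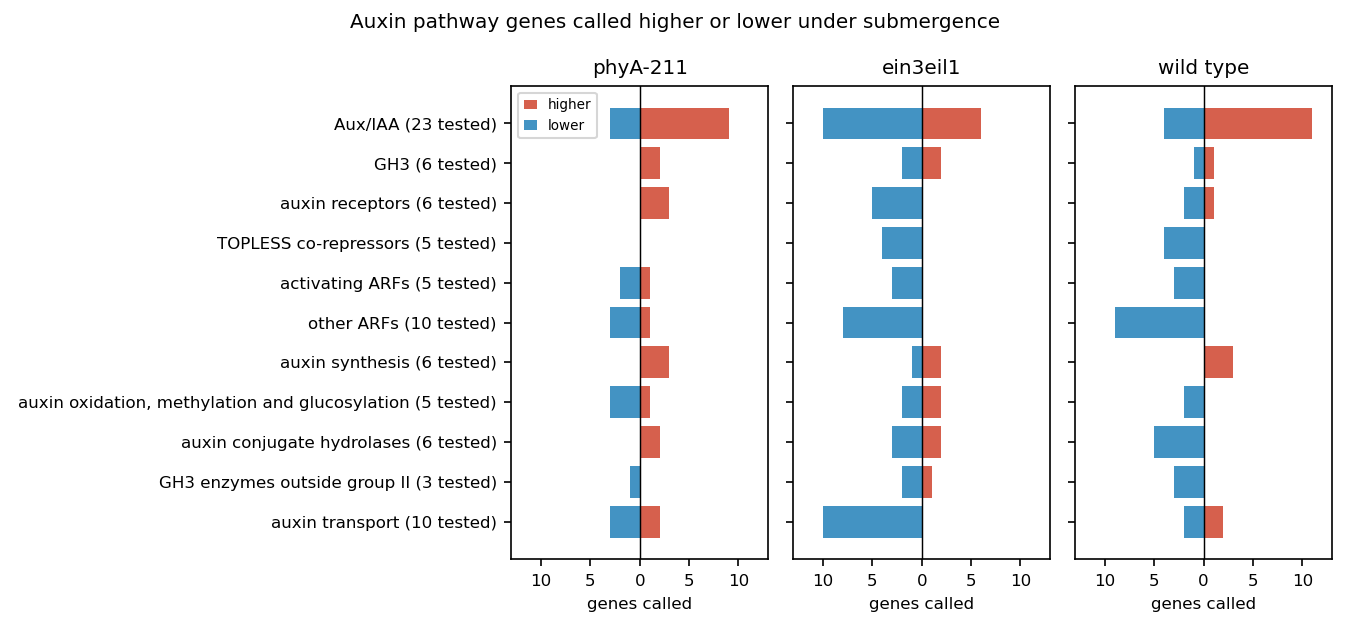
Number of genes called higher (red, right of 0) or lower (blue, left of 0) under submergence in phyA-211, ein3eil1 and wild type, by list, with the number tested in brackets. Aux/IAA genes have 9 calls higher and 3 lower in phyA-211, 6 and 10 in ein3eil1, and 11 and 4 in wild type, and the 10 auxin transport genes are all lower in ein3eil1.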

How the data were processed

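Expression was measured by RNA-seq in 18 leaf libraries, 6 groups of 3. Per the labels' protocols, RNA was selected with oligo(dT) and copied with random primers, and whether strand was kept is not stated. The submitters' processing notes name fastp, cutadapt, HISAT2, DESeq2 and the TAIR10 build, without versions or roles. The values were deposited by the authors with no unit named and were read as TPM, since they carry decimals and sum to 996105 to 998620 in each library. Read depth is not given in the sources used here, so precision is that of the 3 libraries of a group.

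Members and gene lists were chosen with earlier results of these data known. Values were tested as log2(TPM + 1) with limma 3.58.1 (trend and robust moderation, two-sided) in R 4.3.3, with all 18 libraries in 1 fit and a mean per group. A gene was tested if it reached 1 TPM in 3 or more libraries, which left 20302 genes for 9 comparisons, and a call is a Benjamini-Hochberg adjusted p under 0.05 over all of them. Fold changes on this scale understate the change of low genes. A plan for count values was set aside because the table holds TPM. The fit was tested on simulated data: with equal spread in all groups it recovered the changes put in and kept to the threshold, and with each group's own spread it made too many calls in comparisons with submerged phyA-211. The simulated noise was independent for each gene and library, unlike that of submerged phyA-211 replicate 1.

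All 37 members could be named. In submergence responses the called members with the largest changes have values by library, in other comparisons up to 10 called members, and of other lists up to 2 with the smallest adjusted p in a comparison. In ein3eil1 the lower genes of the auxin oxidation and hydrolase lists are named as well, while the gene with the largest change is not. PHYA (in air only), EIN3 and EIL1 serve as a check of the lines. Alternatives were a pseudocount of 0.1, no filter, centring on the median gene, quantile normalization, replicate number as a block, library weights (arrayWeights), a fit of only the libraries compared, and leaving out each library. Sequences and positions were read with Python 3.11.15 from RefSeq TAIR10.1, where all 37 members matched. The degron was looked up as codons in place of protein letters, because no protein table was used.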

Additional observations from a re-analysis of the deposited data

Results flagged for a closer look

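The response to submergence differed between phyA-211 and wild type, by limma's test of the difference itself, for 6 of the 29 tested members, beside 24.6% of all genes, a larger share than that of the members. On the log2 scale the phyA-211 response minus the wild-type response was 2.34 for GH3.3 (adjusted p = 0.0198) and 0.82 for IAA12 (adjusted p = 0.0221). It was -1.10 for IAA4 (adjusted p = 0.041), -1.45 for IAA28 (adjusted p = 0.0269), -1.50 for IAA29 (adjusted p = 0.0228) and -1.52 for IAA30 (adjusted p = 0.0419). With only the libraries of these 2 lines in the fit, IAA12, IAA29 and GH3.3 kept their calls. IAA12 was at 0.28 after centring and 0.25 after quantile normalization and was then not called, IAA29 lost its call with a pseudocount of 0.1 TPM, and all 6 lost theirs without submerged phyA-211 replicate 2 and without replicate 3.

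Between ein3eil1 and wild type the same test called 17 of the 29 members, beside 27.4% of all genes. The ein3eil1 response minus the wild-type response was 4.58 for GH3.2 (adjusted p = 0.00014), 3.6 for GH3.3 (adjusted p = 0.000445), 1.57 for IAA17 (adjusted p = 0.000345) and 1.00 for IAA16 (adjusted p = 0.00136). It was -0.99 for IAA2, -1.29 for IAA3, -2.20 for IAA4 and -1.09 for IAA7. It was -1.83 for IAA27, -1.75 for IAA28, -1.18 for IAA29, -2.13 for IAA30 and -1.70 for GH3.5. The smallest were -0.47 for IAA9, -0.77 for IAA11, -0.65 for IAA13 and -0.67 for IAA26.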

How the results depend on the processing

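Counts of members called changed with the estimate of the spread, with scaling and with single libraries. With library weights it was 25 for the phyA-211 response (14 in the fit reported), 8 and 20 for phyA-211 against wild type in air and submerged (0 and 7), 21 for submerged ein3eil1 against wild type (13) and 19 for the phyA-211 difference of responses (6). With only the libraries compared it was 9 for the phyA-211 response, 4 for submerged phyA-211 against wild type and 3 for the phyA-211 difference. For phyA-211 against wild type in air, a pseudocount of 0.1 gave 1, centring 1 and quantile normalization 2, and for ein3eil1 against wild type in air centring gave 5 and quantile normalization 6 (10). Leaving out single libraries gave 0 to 1 calls for phyA-211 against wild type in air, 3 to 11 submerged, 3 (without air wild type replicate 2) to 12 for air ein3eil1 against wild type, and 0 to 9 for the phyA-211 difference. In the other 5 comparisons these counts stayed within 1.5 times the reported one. Shares of all genes called are not given for these alternatives, so the counts cannot be read as results about the members. Among values called in the reported fit or in the alternative, signs turned for IAA30 in the phyA-211 response (-1.38, library weights), IAA13 in the ein3eil1 response (0.0474, centring), IAA9, IAA18 and IAA11 in submerged phyA-211 against wild type (-0.0504 and -0.39 with centring, -0.34 with library weights), IAA11, IAA13 and IAA18 in air ein3eil1 against wild type (-0.0166, -0.0447 and -0.35 with centring, and IAA11 and IAA18 at -0.0084 and -0.34 with quantile normalization), and IAA9 in submerged ein3eil1 against wild type (-0.0761, centring). Another 214 values, called in neither, also changed sign. The cause of these shifts was not tested. Same-numbered libraries were not taken as pairs: 7 of 45 correlations of their deviations from group means passed 0.1 (range -0.375 to 0.438). Between submerged and air phyA-211 they were 0.09 to 0.438, and 2 passed 0.1, so same-numbered libraries of that line may be linked. With the replicate block, 13, 19 and 17 members were called in the phyA-211, ein3eil1 and wild-type responses (14, 20 and 17 without), 0 and 7 for phyA-211 against wild type in air and submerged, 7 and 12 for ein3eil1, and 6 and 17 in the differences. TPM keeps no depth, so low members such as IAA29 in ein3eil1 and IAA30 carry an unknown counting error.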
